A study of Mus musculus with 9 samples.

Results

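The genes described here code for the membrane, the acid hydrolases and the proton pump of the lysosome. They were chosen by gene symbol: 26 listed names, and every gene whose symbol starts with Atp6v0 or Atp6v1. Cathepsins were left out, except for Ctsa (cathepsin A), which was a listed name. On the array design used for experiments 2 and 3 the members were 38 of 8251 genes with a probe set of their own, read by 53 of 12488 probe sets. On the design used for experiment 1 they were 37 of 8220 genes, read by 49 of 12654 probe sets. Lamp1 was the member with a probe set on the larger set of arrays only, and 1 listed name, Arsb, had a probe set on neither. The members were 5 membrane proteins, 17 hydrolases, 3 soluble cofactors and 13 subunits of the proton pump, 6 of its V0 sector and 7 of its V1 sector. Ifi30, a thiol reductase and not a hydrolase by activity, was counted with the hydrolases throughout.

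The arrays measured total RNA of mouse dendritic cells labelled day 10. The 3 groups were B6, the wild type; CIITA-/-, which lacks CIITA, the activator of MHC class II gene transcription; and IAb-/-, whose name refers to H2-Ab1, the gene of the beta chain of the class II molecule. The arrays, 3 a group, were numbered by experiment, so 1 array a group was hybridised to one design and 2 to the other. For 1 CIITA-/- array with no number in its title, 2 was the only number left. The labels name no mouse, culture, age or sex, and nothing says that arrays of a group came from separate cultures, so a p-value here reflects only how far these arrays scatter, and that scatter may be technical.

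Lysosomes digest material taken up by endocytosis, phagocytosis and autophagy. A multisubunit proton pump, the V-ATPase, moves protons into the lumen through its membrane-embedded V0 sector at the cost of ATP split by its cytosolic V1 sector, and the low pH lets the soluble hydrolases work. In dendritic cells the same compartments cut antigens into peptides that are loaded on MHC class II molecules.

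The deposited values are intensities, and as the values show, the arrays of a table share one trimmed mean, between 2502.2 and 2502.6 on the 6 arrays of experiments 2 and 3. On each array, 21% to 26.4% of the values were negative. A value was taken as above noise where it was larger than 95% of the negative values are in size, which set the limit at 1701 for the 6 arrays and at 2203 for the 3 arrays of experiment 1. The class II alpha chain gene H2-Aa, which depends on CIITA, was below 0 on all 3 CIITA-/- arrays and between 29271 and 65738 on the other 6. The probe set for Ciita itself lay under the noise limit on all 9 arrays; the arrays labelled CIITA-/- read 1601, 1639 and 1822 and the other 6 read 398 to 1224, so the arrays labelled CIITA-/- were the highest in each experiment, against the direction of the label. The probe set for H2-Ab1 read between 9621 and 30749 on the IAb-/- arrays. Where these probes lie relative to the deleted parts was not given in the sources used here, so they check nothing about those labels. All 10 dendritic cell markers listed, among them Itgax and Cd74, were measured, and 7 were above noise on all 6 arrays of experiments 2 and 3. In CIITA-/- against B6, 2 of the 10 were higher and 8 lower, where 47.7% of all genes tested were lower. H2-Aa and H2-Eb1 were called lower by limma (adjusted p 0.0081 and 0.036), where 0.0966% of all probe sets were called. Both are class II genes, whose activator CIITA-/- lacks, so they are no cell type markers in this comparison. In IAb-/- against B6, 4 were higher and 6 lower with none called, where 48.1% of all genes tested were lower.

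Transcripts of the lysosome were well represented in these cells. Of the 38 members, 32 (84.2%) were above noise on all 6 arrays of experiments 2 and 3, against 2932 of 8251 genes (35.5%). By group, 33 were above noise on both B6 arrays and 32 on both arrays of CIITA-/- and of IAb-/-. The members within or near the noise were the hydrolase genes Gaa, Gla, Lipa, Neu1, Arsa and Ppt1. Ppt1, a palmitoyl-protein thioesterase, was under 0 on all 6 arrays and was not tested. Of the 53 member probe sets, 48 passed the filter on low values. The probe set with the highest mean stood for each gene, and since probe sets differ in response, no gene's level is compared with another's. In bulk RNA, fewer cells of a type and less RNA per cell cannot be told apart.

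The membrane genes were measured in every group, and the differences between groups were small. Lamp1, a major glycoprotein of the lysosomal membrane, read 54414 and 46446 on the B6 arrays, 53304 and 61953.5 on the CIITA-/- arrays and 69649.5 and 54782 on the IAb-/- arrays. The B6 and CIITA-/- values overlapped, and both IAb-/- values lay above both B6 values. Lamp2, its relative, which also takes part in chaperone-mediated autophagy, read 17184 and 16581 on the B6 arrays, 17253 and 20263.5 on the CIITA-/- arrays and 19776 and 20102 on the IAb-/- arrays, and 29225 in B6, 28393 in CIITA-/- and 27507 in IAb-/- in experiment 1. Both IAb-/- values were above both B6 values in experiments 2 and 3, whereas in experiment 1 the IAb-/- value was the lowest of the 3. A second Lamp2 probe set also had both IAb-/- values above both B6 values in experiments 2 and 3, with 9235 and 9424 in B6, 9681 and 11582 in CIITA-/- and 11402 and 11668 in IAb-/-.

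Npc1, which passes cholesterol out of the lysosome, had the clearest separation among the membrane genes. It read 11088 and 10246.5 on the B6 arrays, 14259.5 and 14149 on the CIITA-/- arrays and 15053.5 and 13182 on the IAb-/- arrays. All 4 values from the mutant groups lay above both B6 values. In experiment 1, on the other array design, the same probe set read 14380.0 in B6, 14837 in CIITA-/- and 13779 in IAb-/-, and the separation was not seen. Cd63, a tetraspanin of late endosomes, read 32325 and 32156 (B6), 32130.5 and 31384.5 (CIITA-/-) and 34335.5 and 29977 (IAb-/-), with both CIITA-/- values just under the B6 values and the IAb-/- values on either side of them. Scarb2, the receptor that carries glucocerebrosidase to the lysosome, read 7789 and 7681 (B6), 8994.5 and 7010.5 (CIITA-/-) and 9260.0 and 7187 (IAb-/-) and overlapped between all groups.

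**Figure D1:**
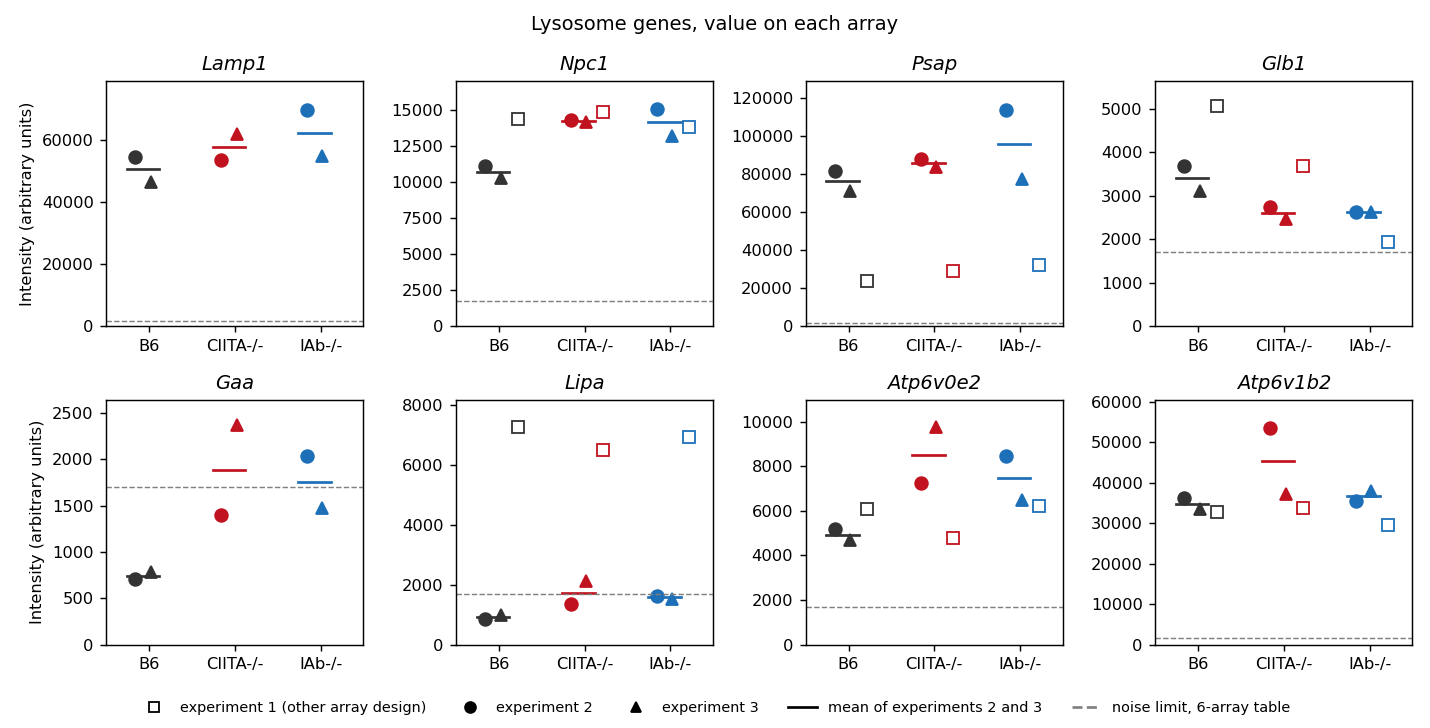
Deposited intensity of 8 lysosome genes on each array, with circles for experiment 2, triangles for experiment 3, open squares for experiment 1 on the other array design, bars for the mean of experiments 2 and 3, and a dashed line at the noise limit of the 6-array table (1701). Npc1, Atp6v0e2, Gaa and Lipa read higher on all 4 mutant arrays of experiments 2 and 3 than on both B6 arrays, and Glb1 read lower.

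The 3 soluble cofactors, which carry lipids inside the lysosome, had large signals in all groups. Psap, the precursor of the saposins, read 81550.2 and 70702 on the B6 arrays, 87807.5 and 83446 on the CIITA-/- arrays and 113561 and 77185.5 on the IAb-/- arrays, and 23621 in B6, 28725 in CIITA-/- and 32018 in IAb-/- in experiment 1. The CIITA-/- values were above the B6 values, and the lower IAb-/- value lay between the B6 values. Another Psap probe set, above noise on all 9 arrays, was lower in both mutant groups in experiment 1, at 4358 in B6, 3236 in CIITA-/- and 2987.5 in IAb-/-, so the probe sets disagreed there. Gm2a, the activator of GM2 ganglioside breakdown, read 39726 and 32858 (B6), 41484 and 40399 (CIITA-/-) and 44866 and 32201 (IAb-/-), and 23143.5 in B6, 26689.6 in CIITA-/- and 29272.5 in IAb-/- in experiment 1. CIITA-/- was above B6 in each experiment, and IAb-/- overlapped with B6 in experiments 2 and 3. Npc2, which hands cholesterol to Npc1, read 82447.5 and 80908 (B6), 76809 and 86473 (CIITA-/-) and 83011 and 74691 (IAb-/-), and all groups overlapped. On the experiment 1 design Npc2 had another probe set, which lay within noise at 47 to 585.

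The high Psap and Lamp1 values in IAb-/- come with a difference in control signals between that group's arrays. The spike-in control Cre read 99616 on the IAb-/- array of experiment 2 and 58224 on that of experiment 3, against 71464 to 79408 on the other 4 arrays, and the 3' probe set of actin read 210788 and 137677 against 152620 to 177588. The 3' probe set of the spike-in control BioB, of lower signal, read 10079 and 4862 against 6139 to 7921. Within those ranges both CIITA-/- arrays lay above both B6 arrays. Cre read 79408 and 78317 in CIITA-/- against 71464 and 72057 in B6, and actin 172132 and 177588 against 163548 and 152620. BioB read 7921 and 7414 against 6388 and 6139. For the 5' probe sets of BioB and BioDn the CIITA-/- and B6 values overlapped. The summed level of the 38 members was 720790 and 629286 on those IAb-/- arrays, 648924 and 607058 on the B6 arrays and 678693 and 668907 on the CIITA-/- arrays. The part of these control differences in the IAb-/- and CIITA-/- results was not tested.

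Among the hydrolases, Glb1, the lysosomal beta-galactosidase, had lower values in both mutant groups in every experiment, as did Arsa. It read 3673 and 3118.5 on the B6 arrays, 2735 and 2460.5 on the CIITA-/- arrays and 2629 and 2633 on the IAb-/- arrays, and 5053.5 in B6, 3672 in CIITA-/- and 1942 in IAb-/- in experiment 1. B6 was highest in all 3 experiments, and the IAb-/- value of experiment 1 was under the noise limit of its table. Another Glb1 probe set, on the experiment 1 design alone, read 6695 in B6, 6153 in CIITA-/- and 6862 in IAb-/-, so the probe sets disagreed on IAb-/-.

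Gaa, the acid alpha-glucosidase that degrades glycogen, and Lipa, the acid lipase, were near the noise limit. Gaa read 706 and 779.8 on the B6 arrays, 1399 and 2365 on the CIITA-/- arrays and 2029.9 and 1476 on the IAb-/- arrays. Both B6 values were under the limit, and in each mutant group 1 value was above it and 1 under it, so no fold is given. Lipa read 848 and 983 on the B6 arrays, 1347.5 and 2116 on the CIITA-/- arrays and 1633 and 1529 on the IAb-/- arrays. No fold is given for Lipa either, because B6, IAb-/- and 1 of the CIITA-/- values were under the limit. In experiment 1 Lipa was above noise at 7264 in B6, 6502 in CIITA-/- and 6952 in IAb-/-, where B6 was highest. The Gaa probe sets of experiment 1 differ from this one and lay within noise.

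The other genes counted as hydrolases and above noise were close together across groups. Ifi30, the thiol reductase of antigen processing, read 42544 and 36027 (B6), 40662 and 30943 (CIITA-/-) and 43153 and 26864 (IAb-/-). Tpp1, a tripeptidyl peptidase, read 20494 and 18173 (B6), 19441 and 21520.2 (CIITA-/-) and 20802 and 18881 (IAb-/-). In both genes all groups overlapped. Asah1, the acid ceramidase, gave group means of 14335 ± 493, 15168 ± 216 and 14769.9 ± 110.5 (SD, n = 2) in B6, CIITA-/- and IAb-/-. Hexa, the alpha chain of beta-hexosaminidase, gave 8374.5 ± 342, 9127 ± 236 and 9465 ± 419.8, Gusb, the beta-glucuronidase, 6245 ± 175, 6793 ± 205 and 6343 ± 956.5, and Man2b1, the alpha-mannosidase, 9025 ± 331, 10195 ± 549.9 and 9866 ± 1604. Over these 4 genes the ratios to the B6 mean reached 1.13-fold, for Hexa in IAb-/- and Man2b1 in CIITA-/-, and in each of them both CIITA-/- values lay above both B6 values. Ctsa, the protective protein that stabilises Glb1 and Neu1, gave 6099.8 ± 735, 6604 ± 487 and 7215 ± 639, and Smpd1, the acid sphingomyelinase, 6277 ± 117, 5991 ± 89 and 5668 ± 439. For Ctsa both IAb-/- values lay above both B6 values, with a mean 1.18-fold that of B6, and for Smpd1 both values of each mutant group lay below both B6 values. The acid phosphatase genes Acp2 and Acp5 had overlapping values in all groups, from 2288 to 2775 and from 2506 to 3754.5. Arsa, the arylsulfatase A gene, lay around the limit, from 1502 to 2055. Neu1, the sialidase, ran from 707 to 2221, with the 3 values of experiment 2 all below the 3 of experiment 3, and Gla, the alpha-galactosidase, from 458 to 659.5.

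All 13 proton pump genes were above noise on all 6 arrays. In the membrane sector, Atp6v0e2, one of the small e subunits, gave the widest separation. It read 5161 and 4693 on the B6 arrays, 7236 and 9769 on the CIITA-/- arrays and 8467 and 6489 on the IAb-/- arrays, with all 4 mutant values above both B6 values. In experiment 1 it read 6078 in B6, 4785 in CIITA-/- and 6189.6 in IAb-/-, where CIITA-/- was lowest. Atp6v0a1, one of the forms of the large a subunit, which takes part in proton transport, read 2623 and 2461 (B6), 2868.5 and 2757 (CIITA-/-) and 3174 and 2924 (IAb-/-), in the order B6, CIITA-/-, IAb-/- with no overlap, and 4229 in B6, 3069.9 in CIITA-/- and 4146 in IAb-/- in experiment 1, where that order was not kept. The other V0 genes were close together by their brightest probe set: Atp6v0e read 45659 to 52051 over the 6 arrays, Atp6v0d1 16794 to 18686, Atp6v0a2 3267 to 3708 and Atp6v0b, a proteolipid subunit, 8807 to 11474. Both CIITA-/- values of Atp6v0b, 9508 and 9171, lay below both B6 values, 10858.5 and 10373. In experiment 1 it read 13502 in B6 and 14417 in CIITA-/-. Another Atp6v0a2 probe set, above noise on 4 of the 6 arrays, read 2013 and 2239 (B6), 800 and 1845 (CIITA-/-) and 1238.5 and 2222 (IAb-/-).

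In the V1 sector, Atp6v1b2, a B subunit of the ATP-splitting ring, read 36250.3 and 33436 on the B6 arrays, 53488 and 37156 on the CIITA-/- arrays and 35532 and 38057 on the IAb-/- arrays, and 32752 in B6, 33842 in CIITA-/- and 29648 in IAb-/- in experiment 1. The high CIITA-/- mean rested on the array of experiment 2. Atp6v1h, a regulatory subunit, read 6063 and 5849.9 (B6), 7793 and 6624 (CIITA-/-) and 6098.5 and 5817 (IAb-/-), so both CIITA-/- values were above the other 4. In experiment 1 it read 8551.5 in B6, 5347 in CIITA-/- and 6773 in IAb-/-, with CIITA-/- the lowest. Atp6v1a, the catalytic A subunit, read 20916 and 20761 (B6), 20520.0 and 21695 (CIITA-/-) and 18556 and 26019 (IAb-/-), and Atp6v1c1, the C subunit, 6378.5 and 7021 (B6), 6187.5 and 6298 (CIITA-/-) and 6046.5 and 8920.0 (IAb-/-). In both, the IAb-/- array of experiment 3 was the highest of the 6 and that of experiment 2 the lowest. Atp6v1e1, a stalk subunit, gave group means of 12701 ± 438, 13874 ± 82 and 14301 ± 537, Atp6v1g1, its partner in the stalk, 17239.8 ± 105, 16710.4 ± 452 and 17233 ± 1185, and Atp6v1d, of the central shaft, 6824 ± 837, 7259 ± 318 and 7887 ± 879.8 (SD, n = 2).

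**Figure D2:**
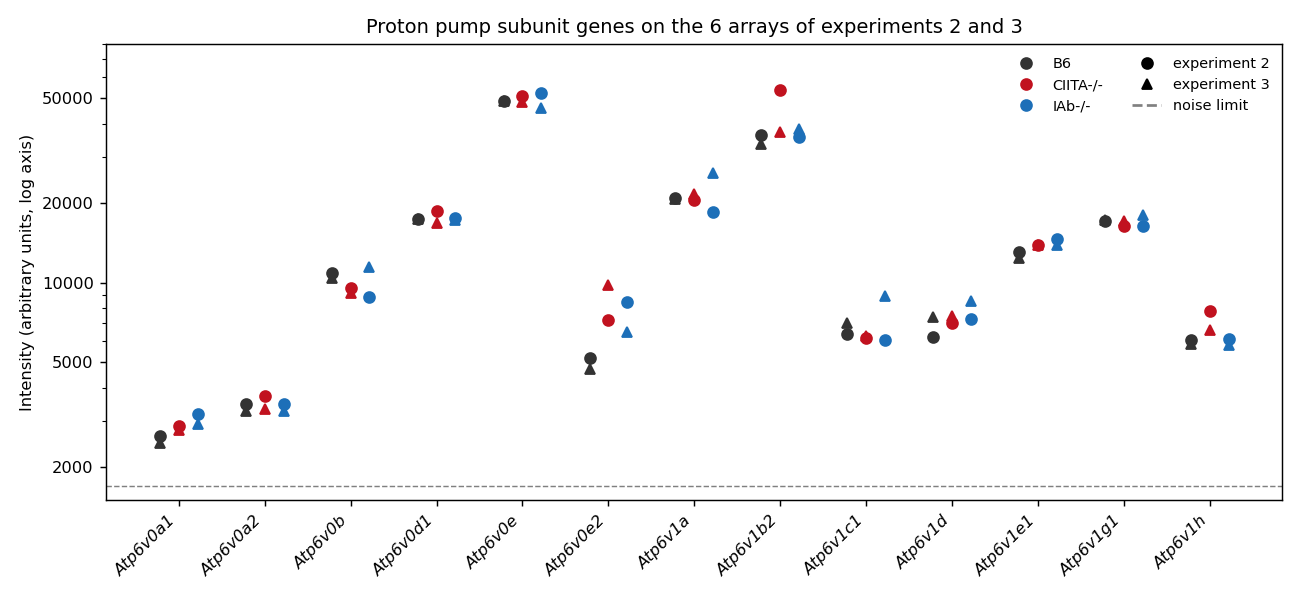
Deposited intensity, on a log axis, of the 13 proton pump genes on the 6 arrays of experiments 2 and 3, with colours for the groups, circles for experiment 2, triangles for experiment 3 and a dashed line at the noise limit (1701). The groups lie close together for most subunits, Atp6v0e2 reads higher on the mutant arrays, and every value is above the limit.

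CIITA-/- against B6 asks whether loss of the class II activator goes with a change in the lysosomal transcripts. On the log2 scale of the limma fit to the 6 arrays, 27 of the 37 members tested had a higher value in CIITA-/- and 10 a lower one, with a median difference of 0.12. Over all 6711 genes tested 52.2% were higher and the median was 0.01. None passed the test: 0 of 48 member probe sets were called at an adjusted p under 0.05, where 0.0966% of all probe sets were called, and 4 had an unadjusted p under 0.05. At the level of genes these were 4 higher and 0 lower, where 2.92% and 2.37% of all genes tested had such a p. The differences with the smallest p were 1.29 (SE 0.32) for Gaa, 0.89 (SE 0.26) for Lipa, 0.77 (SE 0.23) for Atp6v0e2 and 0.41 (SE 0.15) for Npc1, with adjusted p of 0.63, 0.77, 0.78 and 0.83. For Gaa and Lipa these values give no size, since B6 was under the noise limit.

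By role, 4 of 5 membrane genes were higher in CIITA-/- (median 0.15), 11 of 16 hydrolases (median 0.12), 2 of 3 soluble cofactors (median 0.17) and 10 of 13 pump genes (median 0.06). Glb1 was the member with the lowest difference, -0.38 (SE 0.16), a CIITA-/- mean 0.765 times that of B6. Among bright genes the differences were 0.17 (SE 0.23) for Psap, 0.18 (SE 0.22) for Gm2a, 0.19 (SE 0.20) for Lamp1, -0.0031 (SE 0.15) for Npc2 and 0.02 (SE 0.15) for Atp6v0e. Both CIITA-/- arrays were above both B6 arrays for 16 members and below both for 6, where 21.3% and 17.3% of all genes tested were. The median size of the members' differences was 0.14, and for all genes above noise it was 0.12. The first is over all 37 members tested, also those within noise, so these sets are unlike. Replicate arrays of B6 differed by a median of 0.11 over the members, but between single arrays and not between means.

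IAb-/- against B6 asks the same of the class II chain itself. Again 27 members were higher and 10 lower, with a median of 0.08, and 51.6% of all genes tested were higher, with a median of 0.01. The comparison shares its B6 arrays with the one above, so the same counts are no independent result. None of the 48 member probe sets was called by limma, where 0.0107% of all probe sets were, and 3 had an unadjusted p under 0.05. At the level of genes these were 3 higher and 0 lower, where 2.25% and 1.86% of all genes had such a p. These 3 were Gaa, at 1.22 (SE 0.32) with an adjusted p of 0.87, Lipa, at 0.79 (SE 0.26), and Npc1, at 0.40 (SE 0.15), the latter pair each with an adjusted p of 1. The values of Gaa and Lipa give no size, since Gaa was under the noise limit in B6 and Lipa in both groups. Atp6v0e2 at 0.59 (SE 0.23) and Glb1 at -0.36 (SE 0.16) followed, above an unadjusted p of 0.05.

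The membrane genes had the highest median by role, 0.24, with 4 of 5 higher, and Lamp1 and Lamp2 had 0.30 (SE 0.20) and 0.24 (SE 0.15). The medians were 0.06 for the hydrolases (12 of 16 higher), 0.07 for the soluble cofactors (2 of 3) and 0.08 for the pump genes (9 of 13). Psap had 0.30 (SE 0.23) and Atp6v0a1 0.26 (SE 0.14), whereas Ifi30 had -0.20 (SE 0.30). Both IAb-/- arrays were above both B6 arrays for 12 members and below both for 3, where 16.9% and 15.5% of all genes tested were. Replicate arrays of IAb-/- differed by a median of 0.19 over the members and those of B6 by 0.11. The median size of the members' differences from B6 was 0.12. That one is between means of 2 arrays and the replicate values are between single arrays, so they are unlike measures.

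The direct comparison of CIITA-/- with IAb-/- gave smaller differences, with a median size over the members of 0.08 and over all genes above noise of 0.09. The members within noise were again counted in the first of these medians. Of the 37 members 21 were higher in CIITA-/- and 16 lower, with a median of 0.03, and 50.3% of all genes tested were higher. No member probe set was called by limma, where 0.0215% of all were, and 1 had an unadjusted p under 0.05. That one was a second probe set of Man2b1, under the noise limit in both groups, and by the brightest probe set no gene had such a p, where 2.32% of all genes were higher and 1.79% lower with one. The smallest p values among genes above noise were those of Atp6v1h at 0.27 (SE 0.15), Atp6v1b2 at 0.28 (SE 0.22), Atp6v1c1 at -0.23 (SE 0.23) and Atp6v0a1 at -0.12 (SE 0.14), each with an adjusted p of 1. Both CIITA-/- arrays lay above both IAb-/- arrays for 3 members and below both for 1, where 13.2% and 12.9% of all genes did. No member differed by more than 0.5, whereas 3 members, Gaa, Lipa and Atp6v0e2, did in each comparison with B6. Of these, Gaa and Lipa give no size because of the noise limit. The share of all genes over 0.5 was not counted.

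**Figure D3:**
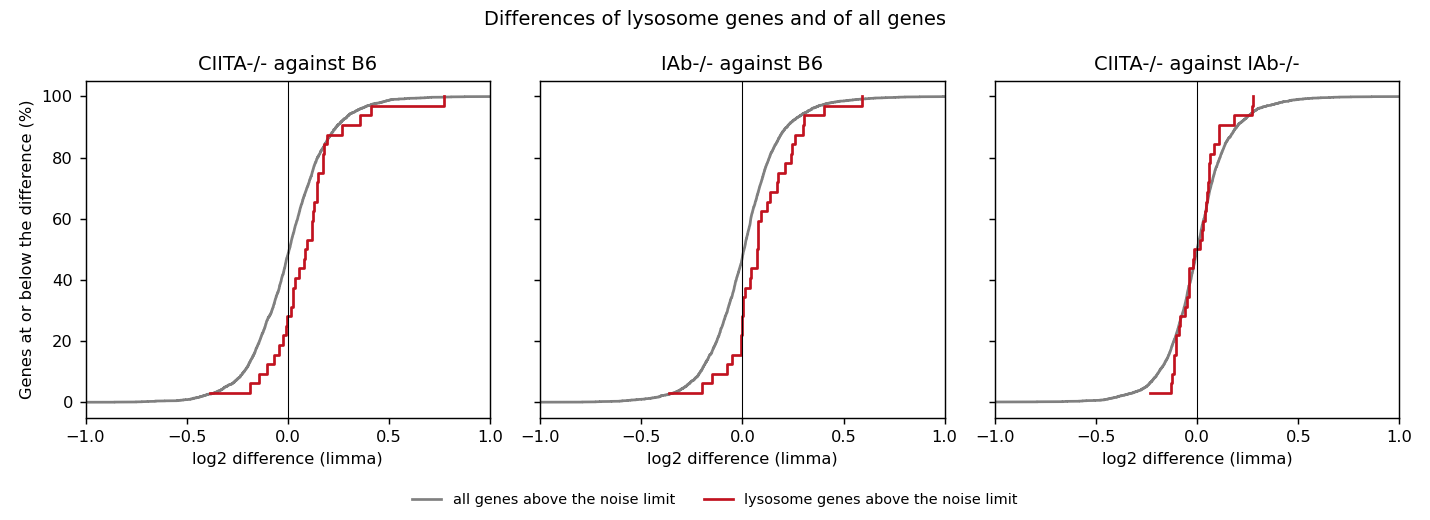
Cumulative share of genes (percent) at or below each log2 difference of the limma fit, for the 32 lysosome genes above noise on all 6 arrays (red) and all 2932 genes above noise (grey), in the 3 comparisons; the horizontal axis is cut at -1 and 1. Over most of its length the red curve lies to the right of the grey one for both mutant groups against B6 and follows it for CIITA-/- against IAb-/-.

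The arrays of experiment 1 were left out of the 6-array fit, and on them the members did not lean upward. The median difference over the 32 members with the same probe set on both designs was -0.03 for CIITA-/- against B6, with 15 higher, and -0.09 for IAb-/- against B6, with 9 higher. Over the 28 of them above noise on all arrays of experiments 2 and 3, the medians were 0.0089, with 15 higher, and -0.08, with 9 higher. Of 5717 genes, 2677 and 2772 were higher there, with medians of 0. In experiment 2 the medians over 37 members were 0.06 and 0.09, and in experiment 3 they were 0.12 and 0.09. For CIITA-/- against IAb-/- the medians were 0.08, -0.06 and 0.02 in experiments 1, 2 and 3. Experiment 1 was hybridised to another array design, so a difference between experiments and one between designs cannot be told apart.

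A few genes kept one direction in all 3 experiments. In CIITA-/- against B6, 6 of the 32 members were higher each time (Psap, Gm2a, Npc1, Asah1, Atp6v1b2 and Atp6v1e1) and 2 were lower (Glb1 and Arsa), where 14.0% and 12.5% of all genes were. Psap differed by 0.28, 0.11 and 0.24 in experiments 1, 2 and 3, and Glb1 by -0.46, -0.43 and -0.34. Another Atp6v1b2 probe set gave -0.03, 0.20 and 0.15, so that gene kept its direction by the brightest probe set only. Atp6v1e1 was higher in experiment 1 by only 0.0066 in CIITA-/- and 0.0028 in IAb-/-. In IAb-/- against B6, 3 were higher (Psap, Atp6v0e2 and Atp6v1e1) and 3 lower (Glb1, Arsa and Atp6v0a2), where 12.8% of all genes were in each direction. The place of Atp6v0a2 rests on -0.0059 and -0.0042 in experiments 2 and 3, and another of its probe sets gave -0.14, 0.15 and 0.35. Psap by its other shared probe set gave -0.54, 0.08 and 0.64 in IAb-/- and -0.43, 0.17 and 0.05 in CIITA-/-, so its one direction holds for the brightest probe set only. By that one, Psap in IAb-/- differed by 0.44, 0.48 and 0.13, and Glb1 by -1.38, -0.48 and -0.24. The Glb1 value of IAb-/- in experiment 1 was under the noise limit. Another Glb1 probe set of that design read 6862 in IAb-/- and 6695 in B6, so this direction did not hold for both probe sets. In CIITA-/- against IAb-/-, 4 were higher (Smpd1, Asah1, Atp6v0a2 and Gla, the last within noise) and 2 lower (Atp6v0a1 and Acp2), where 11.1% and 12% of all genes were.

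Other members changed side between experiments. Npc1 differed from B6 by -0.06, 0.44 and 0.36 in IAb-/-, and Atp6v0e2 by -0.35, 0.49 and 1.06 in CIITA-/-. Atp6v1h in CIITA-/- gave -0.68, 0.36 and 0.18, and with the experiment number as a block over all 9 arrays its difference was -0.045. Lipa in CIITA-/- gave -0.16 in experiment 1, where it was above noise, against 0.67 and 1.11. Man2b1 and Ctsa in IAb-/- gave -0.57 and -0.51 in experiment 1, against 0.25 and 0.21 in experiment 2 and -0.0096 and 0.28 in experiment 3. With the block over all 9 arrays limma called no member in any of the 3 comparisons; Glb1 in IAb-/- was at -0.70 (adjusted p 0.92) and Psap at 0.35 (adjusted p 0.92).

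**Figure D4:**
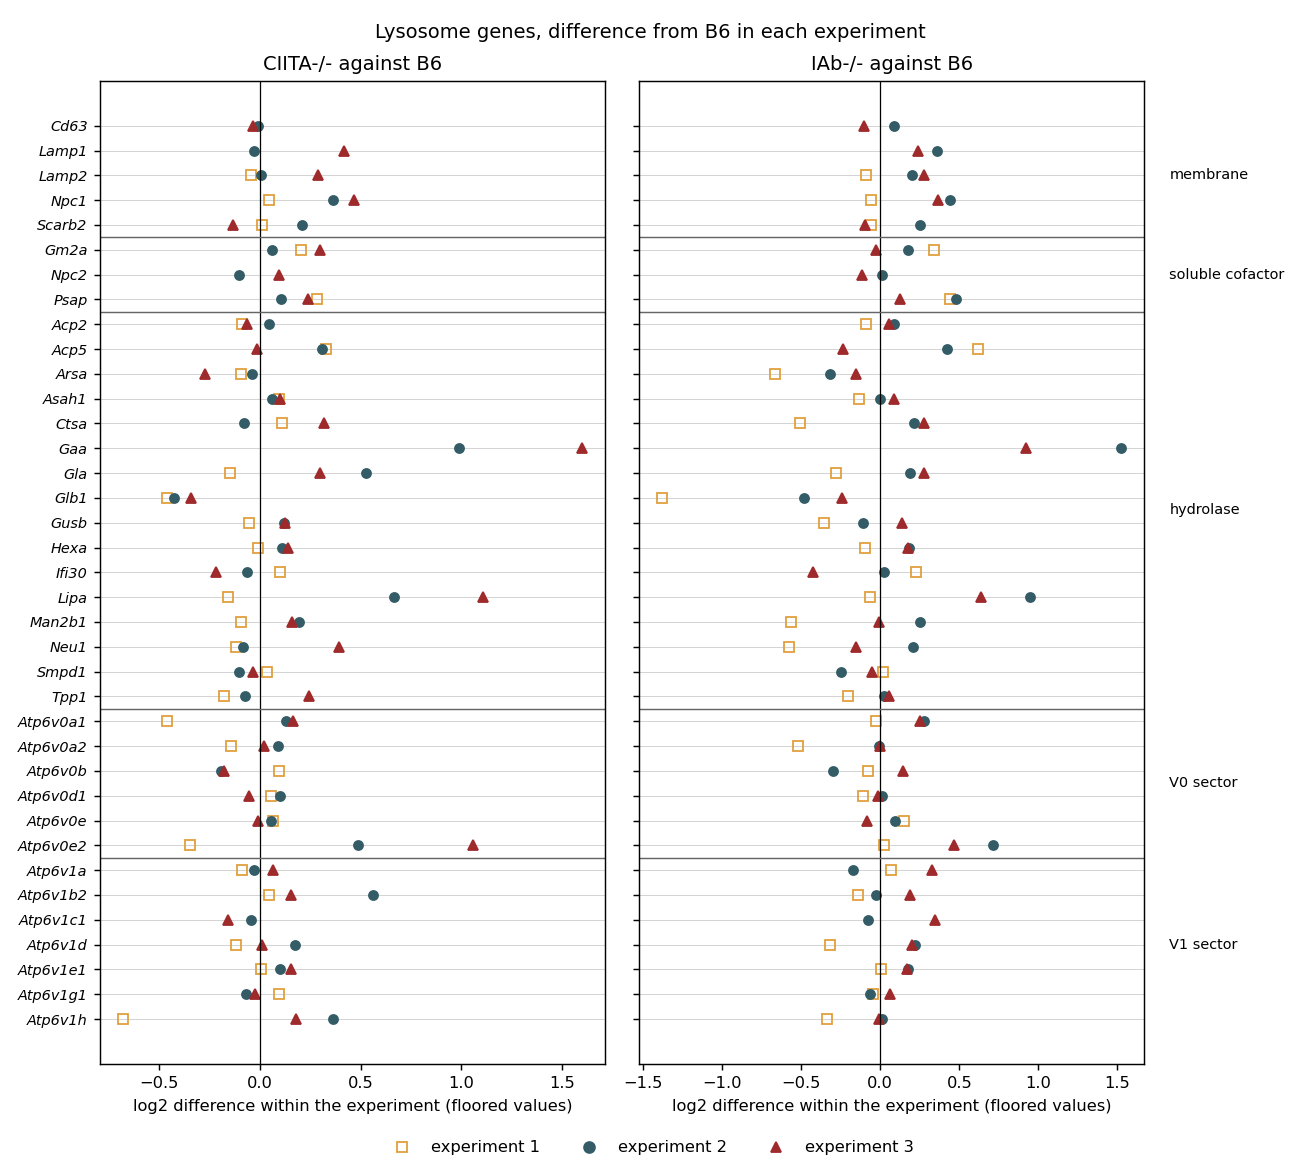
Difference from B6 (log2, within each experiment) of the 37 members tested, by role, for CIITA-/- (left) and IAb-/- (right); open squares are experiment 1, circles experiment 2 and triangles experiment 3. Glb1 is left of 0 and Psap right of 0 in all 3 experiments, and most squares for IAb-/- lie left of 0.

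Lysosomal genes are known for an E-box in their promoters, the CLEAR element bound by TFEB, whose core is CACGTG. RefSeq promoter windows of GRCm38.p6, from 250 bases before to 50 after a gene start, were matched for 31 of the 38 members, and both strands were searched. The core was found in 11 of the 31 (35.5%) and in 8.09% of all 27025 genes. The longer TCACGTGA, which contains the core, was found in 6 (19.4%) and in 1.12% of all genes, and a palindrome of 10 bases, which adds a G before and a C after it, in 0 of the 31 and in 0.37% of all genes. A match describes the letters and shows no binding. Stretches are printed for Lamp1, which holds the core 4 times, for Glb1 and Gaa, the members with the lowest and the highest difference in CIITA-/- against B6, and for the pump gene Atp6v0b; the core is in capitals.
Lamp1 (chr8:13159070-13159160, plus strand): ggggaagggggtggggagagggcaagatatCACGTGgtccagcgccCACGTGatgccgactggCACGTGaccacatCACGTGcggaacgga
Glb1 (chr9:114401000-114401065, plus strand): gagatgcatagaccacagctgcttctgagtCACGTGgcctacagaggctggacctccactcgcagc
Gaa (chr11:119267793-119267858, plus strand): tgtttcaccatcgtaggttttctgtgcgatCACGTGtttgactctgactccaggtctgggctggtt
Atp6v0b (chr4:117887330-117887395, minus strand): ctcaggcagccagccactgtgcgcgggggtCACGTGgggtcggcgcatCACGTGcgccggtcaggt

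The other members with the core were Arsa, Atp6v0d1, Atp6v0e, Atp6v1a, Ctsa, Gla and Ifi30. Glb1, with lower values in the mutant groups, and Gaa, with higher ones, both hold it. For CIITA-/- against B6 the median difference was 0.02 over the 11 genes with the core and 0.13 over the 19 tested genes whose window lacks it, and for IAb-/- against B6 the medians were 0.00 and 0.09.

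**Figure D5:**
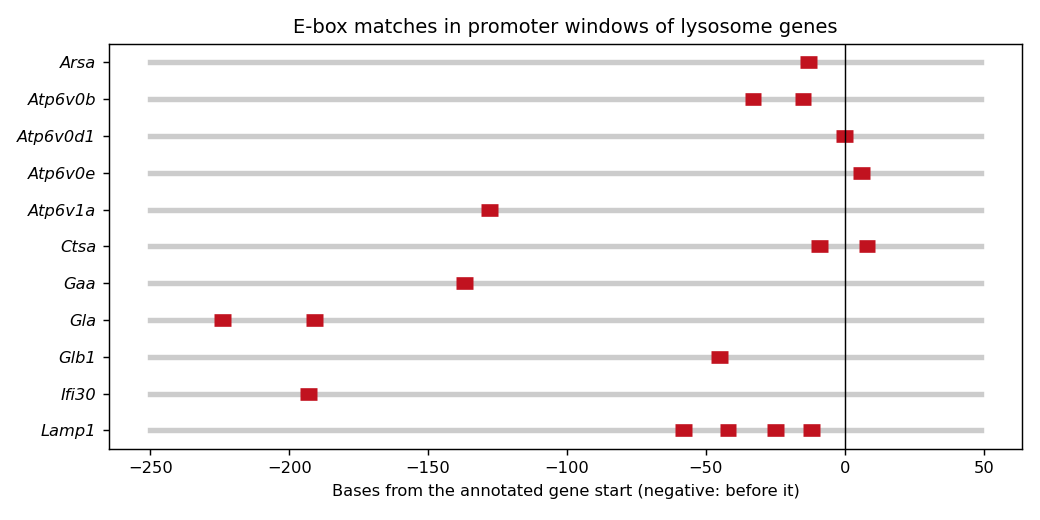
Position of each CACGTG match (red) in the promoter windows (grey) of the 11 members that hold one, in bases from the annotated gene start. Lamp1 holds 4 matches and Atp6v0b, Ctsa and Gla hold 2 each.

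Other genes of the lysosome were covered in part. Of 31 genes listed as other hydrolases, 11 had a probe set, and none was called by limma in any comparison. The list name is loose, since Lyst, Sumf1, Hgsnat and Acp1 among them are not hydrolases of the lysosome. Lyst also stood in the trafficking list. Among them Ids, the iduronate sulfatase, had -0.77 (SE 0.20) in CIITA-/- against B6 and -1.14 (SE 0.20, adjusted p 0.42) in CIITA-/- against IAb-/-, and in experiment 1 it had 0.73 in CIITA-/- against B6. Of 27 other membrane proteins and transporters 15 were measured, and of 40 trafficking and biogenesis genes 29, again with none called. At an unadjusted p under 0.05 these 3 lists held 1 lower (Ids) and 1 higher gene (Vps16) in CIITA-/- against B6, 1 higher (Hyal2) in IAb-/- against B6, and 2 lower (Ids and Hyal2) and 1 higher (Vps16) in CIITA-/- against IAb-/-. The shares of all genes with such a p, 1.79% to 2.92% by comparison and direction, stand beside the counts of the members above. Ids, Vps16 and Hyal2 were named after their values were seen.

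Markers of other cell types were measured beside these values. Of 9 macrophage markers measured, Cd68 and Csf1r were above noise on all 6 arrays, and the summed level lay between 9863 and 13359 in B6, 12356 and 12636 in CIITA-/- and 11995 and 13400 in IAb-/-. In experiment 1, of 7 macrophage markers with the same probe set, 1 was higher in CIITA-/- than in B6 (median -0.31) and 0 in IAb-/- (median -0.63). Of 8 neutrophil markers measured, only Camp was above noise on any of the 6 arrays. Their sums, made up largely of values within noise, were 4761 and 4905 in B6, 6071 and 5674 in CIITA-/- and 3972 and 4715 in IAb-/-. None of the 4 osteoclast markers measured was above noise on any of the 6 arrays, and their sums, of values within noise, ran from 1000.1 to 1768. The part of these cell types in the results was not tested.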

How the data were processed

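RNA of day 10 dendritic cells was hybridised to Affymetrix arrays, 3 arrays a group. The intensity values deposited by the authors, 1 per probe set and array, share one trimmed mean within each table, as the values show; the algorithm was not given in the sources used here, and no depth applies to arrays. Gene symbols came from the platform annotation, and those with several symbols were not used. The members and lists were chosen with earlier results of these data known. In the 6-array table, values under the 30th percentile (123.5) were raised to that floor before taking log2, and the 9312 probe sets over the floor on 2 or more arrays were tested. limma 3.58.1 in R 4.3.3 (lmFit, eBayes) fitted the 3 groups with 3 residual degrees of freedom, with Benjamini-Hochberg adjustment over all probe sets; the fit was tested on simulated data. The floored scale understates changes of probe sets with values under the floor. Experiment 1 (floor 93.2) gave differences within the experiment and otherwise entered only the alternative with the block over all 9 arrays; levels were not compared across designs. By the naming rule, members above noise on at least 1 array have values, in full for the 12 with the highest mean and, per comparison, the 4 with the smallest p above noise in at least 1 group; members named beyond it were chosen after their values were seen. The titles number the experiments; deviations from the group means of same-numbered arrays correlated at 0.05 (CIITA-/- and B6), 0.08 (IAb-/- and B6) and 0.21 (IAb-/- and CIITA-/-), so the number was used as a block only in an alternative. Other alternatives changed the floor, the filter, the normalization, the variance trend, the probe sets per gene and the arrays used.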

Additional observations from a re-analysis of the deposited data

How the results depend on the processing

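No member probe set was called in any of the 3 comparisons under any alternative run: a floor at the 40th percentile or at the noise limit, no filter or a stricter one, quantile or cyclic loess normalization, an intensity trend, the mean over probe sets, or leaving out each of the 6 arrays. With the replicate block, over 6 arrays or over all 9, the count was also 0 in each comparison. The planned floor at the 20th percentile was not run because that value, -32, has no logarithm; the 40th was chosen after seeing the data. Medians within experiments, counts above noise and counts of one direction in 3 experiments stayed within the spread or within 1.5 times. Of the genes followed through every alternative, 2 reversed: Atp6v1h in CIITA-/- against B6 was -0.045 with the replicate block over all 9 arrays, and Atp6v1c1 in CIITA-/- against IAb-/- was 0.046 without IAb-/- replicate 3 and -0.51 without IAb-/- replicate 2. Over all members with the same probe set on both designs, the block over all 9 arrays turned the sign of 6, 7 and 7 of 32 in CIITA-/- against B6, IAb-/- against B6 and CIITA-/- against IAb-/-, each with a difference of at most 0.27 without it. With 2 arrays a group and 3 residual degrees of freedom, small differences were not detectable. Most differences of the 6 members near or under the noise limit have no fold.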
